A study of Mus musculus with 2 samples.

Results

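Sialyl-, fucosyl- and other Golgi glycosyltransferases were compared between S100A4-positive and S100A4-negative cells of mouse Peyer's patches. The genes were taken by name alone: every non-control probe whose gene name in both scanner tables starts with St3gal, St6gal, St8sia, B3galt, B4galt, B3gnt, Galnt, Gcnt or Mgat, followed by a digit or n, or with Fut followed by a digit. This gave 147 of 56605 probes, under 82 gene names, of which 79 are enzyme genes and 3 (Fut4-ps1, Galnt6os and St8sia3os) are a pseudogene and RNA genes named after a neighbouring enzyme. A probe counted as measured where the scanner software marked it well above background on at least 1 array, which held for 88 probes and 57 gene names.

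The S100A4-positive group was GFP-positive and the S100A4-negative group GFP-negative cells, sorted after enzymatic dissociation of Peyer's patches, which are lymphoid tissue of the small intestinal wall, from S100A4-GFP transgenic mice on the C57BL/6 strain. Each group is 1 sample on 1 Cy3-labelled Agilent array. The age, sex and number of the mice, whether animals were pooled and which promoter fragment drives GFP are not given in the sources used here. With 1 array per group no test between groups was possible, and a size of at least 2-fold was used in place of a test. The errors given are those that the scanner software puts on the spots, about ± 0.21 for a log2 difference, and do not cover variation from mouse to mouse or from sort to sort. Signals are printed as the scanner software gave them. Fold changes and log2 differences were taken after each signal was divided by the 75th percentile of its array, which was 287 on the positive and 446 on the negative array, so they exceed the plain ratio of positive to negative signal.

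Glycosyltransferases of the Golgi build glycans step by step by moving a sugar from a nucleotide donor onto a growing chain. Some start or branch the chain, galactosyl- and N-acetylglucosaminyltransferases extend it, and sialyl- and fucosyltransferases cap it. On leukocytes the caps decide what lectins can bind: sialic acid in alpha-2,6 linkage is the ligand of the B cell lectin CD22, and sialylated, fucosylated chains on core 2 O-glycans are ligands of the selectins. In the gut epithelium the same kinds of enzymes build the mucins.

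S100a4 read a processed signal of 119341 on the positive and 1057 on the negative array, 175-fold higher. Spots well above background made up 52.3% of the 59305 non-control spots of the positive and 53.3% of those of the negative array, and none was saturated. The fractions differed in cell type markers. All 6 B cell markers were lower by 2-fold or more, and their summed signal, in units of the 75th percentile of each array, was 19.0 on the positive and 370.3 on the negative array; Pax5 in the positive fraction was not well above background. All 5 T cell markers were lower too, with 7.47 on the positive and 102 on the negative array. So were 5 of 6 enterocyte markers, with 2.00 on the positive and 19.1 on the negative array, and all 4 goblet cell markers, with 0.218 on the positive and 28.5 on the negative array. Of 7 mononuclear phagocyte markers 6 were higher, with a summed signal of 237.8 on the positive and 15.7 on the negative array. Endothelial markers were higher in 3 of 4 cases (3.25 on the positive, 0.605 on the negative array) and M cell markers in 3 of 4 with Spib lower (25.4 on the positive, 27.0 on the negative array). Of 4 measured fibroblast markers 1 was higher and 1 lower (1.19 on the positive, 0.950 on the negative array), and Pdgfra was not measured. The leukocyte marker Ptprc lay within 2-fold. The part of these cell type differences in the results below was not tested, and in bulk samples of this kind fewer cells of a type and less RNA per cell cannot be told apart.

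The probes behind the 2 largest rises and the 2 largest falls among glycosyltransferases measured on both arrays are shown by the first 30 bases of each 60-base probe, 5′ to 3′, because each of these values rests on what that oligonucleotide binds. Capitals are not used, as no part of a probe matters more than another, and each position is on the mm9 build, as the array annotation gives it.
Gcnt2, chr13:41055331-41055390, plus strand: cagatgatgtagcaagccttaggatggttc
Fut4, chr9:14553224-14553283, minus strand: atgttaatgagatattggccaggcgtctta
St6gal1, chr16:23360037-23360096, plus strand: tgtgggggagtaaattaataagtgtaatat
B3gnt5, chr16:19772327-19772386, plus strand: ggaaataaattattgtcccagatggtcact
The mm9 gene models were not used here, so the exon or untranslated region that each probe lies in is not stated.

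Glycosyltransferase genes lay on both sides of 0, with shares past 2-fold not far above those of all named genes. Of the 57 gene names measured, 16 were higher and 12 lower in S100A4-positive cells by 2-fold or more, and 29 lay within 2-fold or had a bound that small. The 8 genes well above background on 1 array alone have a bound only, and were counted at that bound. Over all 15245 named genes measured, the same size was passed by 21.4% upwards and 17.0% downwards, against 28.1% and 21.1% of the glycosyltransferases. Of the 49 genes measured on both arrays 12 were higher and 9 lower (24.5% and 18.4%), where all 12951 such genes gave 17.7% and 16.4%. Their median log2 difference was -0.06, and that of all genes measured on both arrays 0.01. By 4-fold or more, 9 of the 57 were higher and 1 was lower, against 1506 and 760 of all 15245 named genes (9.88% and 4.99%). The share of glycosyltransferases past 4-fold was thus above that of all genes upwards and below it downwards. Each array's 75th percentile is the zero point of every difference. On a scale set by the E1A spike-in controls all genes moved by -2.44, and on that scale St3gal3, St6galnac6, St6galnac3, St8sia1, Galnt3, Galnt5, Mgat4a and B3galt5, given below as higher, had values below 0. The other 4 higher genes measured on both arrays were Gcnt2 at 1.72, Fut4 at 1.35, B4galt6 at 0.16 and B4galt4 at 0.0074 on that scale. Fut7, Galnt18, B3galt2 and Galnt6os, counted as higher at bounds of 2.51, 2.75, 1.95 and 1.74, move by the same -2.44. On the spike-in scale none of these bounds passed 2-fold.

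**Figure D1:**
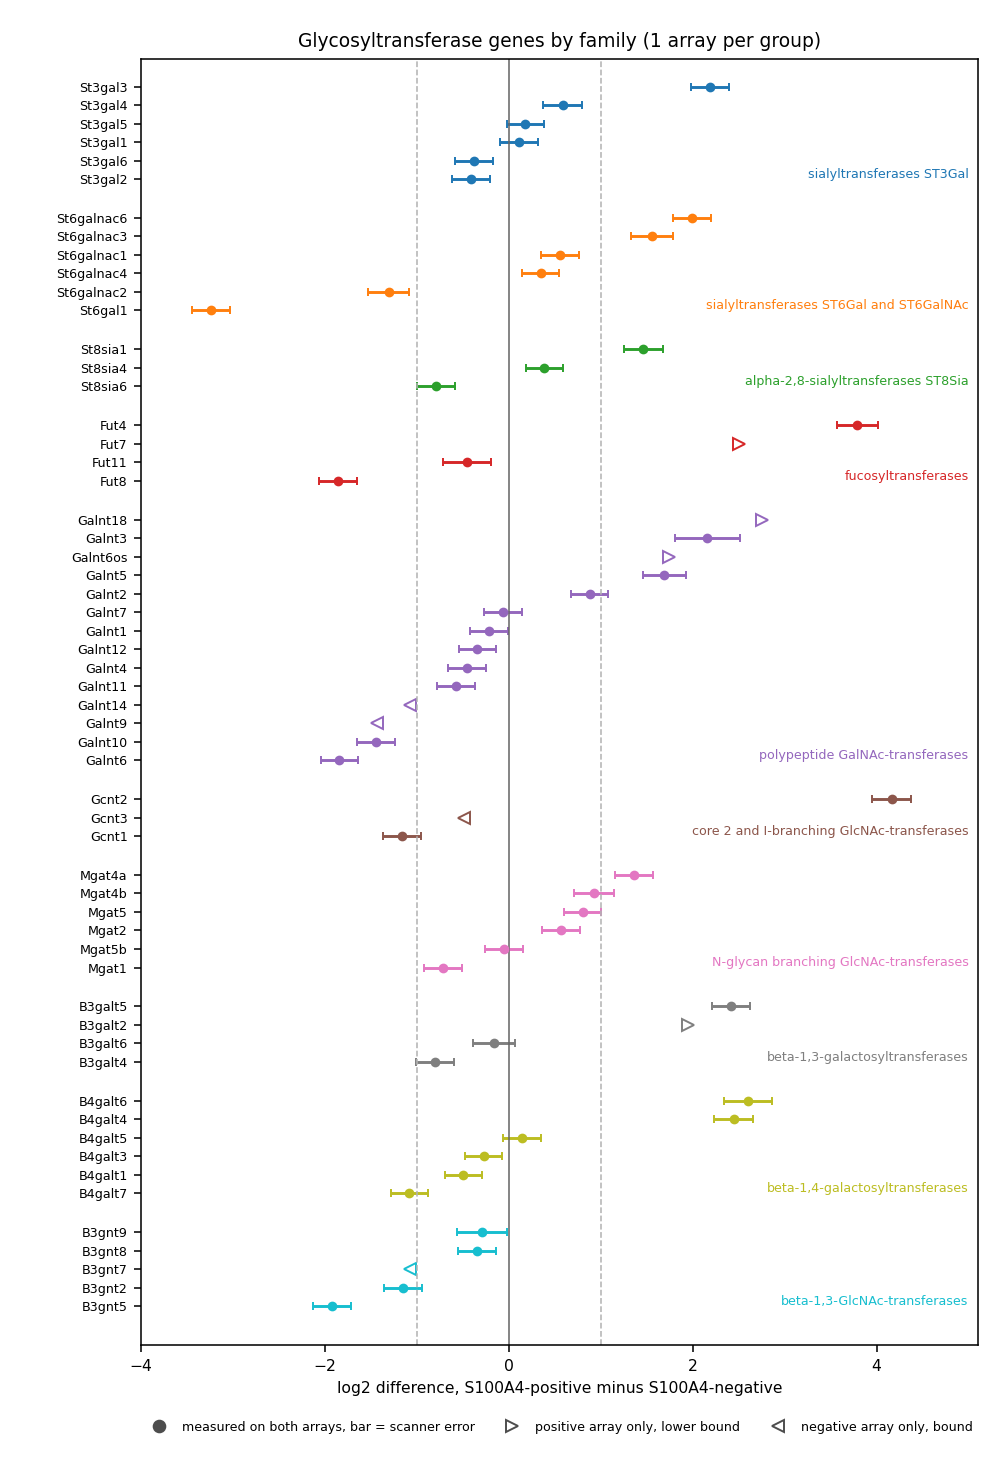
Log2 difference (S100A4-positive minus S100A4-negative, horizontal axis) of the 57 measured glycosyltransferase gene names, grouped by family; filled points were measured on both arrays with the scanner error as a bar, open triangles are bounds for genes well above background on 1 array, and dashed lines mark 2-fold. Gcnt2 and Fut4 lie farthest to the right and St6gal1 farthest to the left, and most families have members on both sides of 0.

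**Figure D2:**
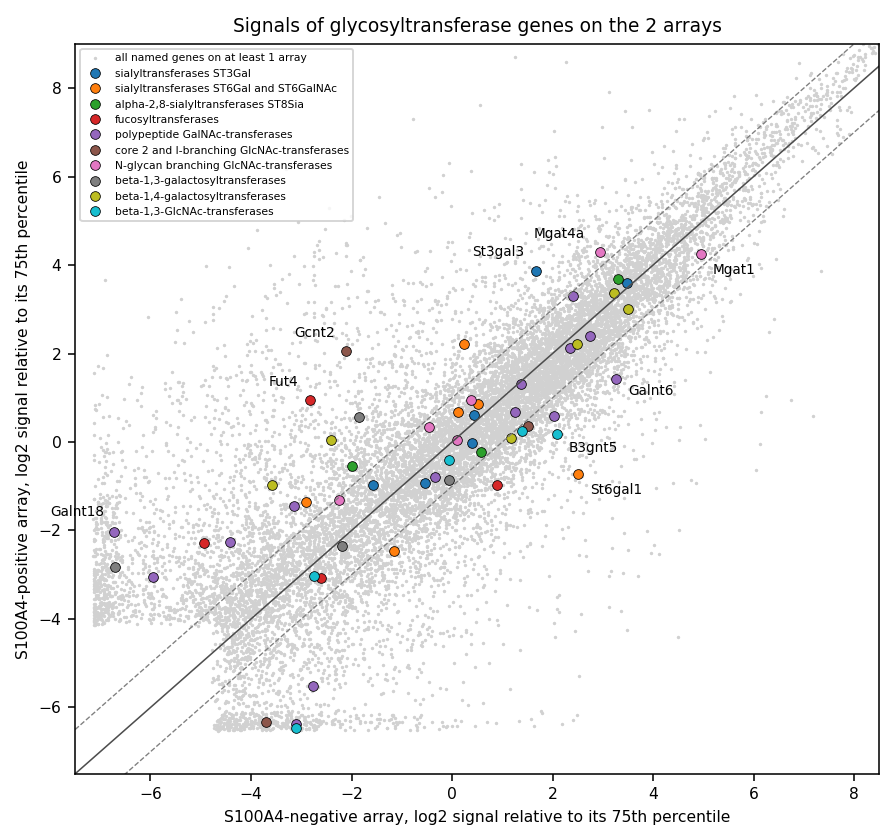
Log2 signal of each glycosyltransferase gene relative to the 75th percentile of the array, S100A4-positive on the vertical and S100A4-negative on the horizontal axis, over all named genes in grey; the solid line marks equal signal and dashed lines 2-fold. St3gal3, Gcnt2 and Fut4 lie above the upper dashed line, and St6gal1, B3gnt5 and Galnt6 below the lower one.

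Among the ST3Gal sialyltransferases, which cap galactose in alpha-2,3 linkage, 1 of 6 was at least 2-fold higher and none was lower. St3gal3, which caps the chains of N-glycans and glycolipids, read a signal of 4183 on the positive and 1422 on the negative array. It was 4.56-fold higher (log2 difference 2.19 ± 0.20), and another of its probes gave 1.93 ± 0.25. The other 5 stayed within 2-fold at the probe used. St3gal4, an enzyme of selectin ligand synthesis, was at 0.58 ± 0.21, St3gal5, the GM3 synthase that starts most gangliosides, at 0.18 ± 0.20, and St3gal1, which caps core 1 O-glycans, at 0.11 ± 0.20. St3gal6 was at -0.37 ± 0.21. St3gal2 was at -0.41 ± 0.21, with 0.28 at another probe. The values of St3gal5 and St3gal1 do not exceed the scanner error.

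St6gal1, the enzyme that adds alpha-2,6 sialic acid to the galactose of N-glycans, showed the largest fall of all glycosyltransferases measured on both arrays. Its signal was 173 on the positive and 2542 on the negative array, 9.45-fold lower in the positive fraction (log2 difference -3.24 ± 0.21), which was rank 137 from the lowest among the 12951 genes measured on both arrays. A further probe of the gene was not well above background on either array. St6gal2, the other enzyme of this linkage, was not well above background at any of its 3 probes, so St6gal1 was the measured gene of this linkage on N-glycans. The B cell markers, among them Cd22, were lower in 6 of 6 cases, with log2 differences or bounds between -6.68 and -3.48. T cell markers were lower in 5 of 5 cases, goblet cell markers in 4 of 4 and enterocyte markers in 5 of 6. A link of St6gal1 with any of these cell types was not tested.

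Of the ST6GalNAc enzymes, which sialylate the GalNAc of O-glycans and gangliosides, St6galnac6 and St6galnac3 were higher by 2-fold or more. St6galnac6, a ganglioside sialyltransferase, had a signal of 1343 on the positive and 523 on the negative array and was 3.98-fold higher (1.99 ± 0.20). St6galnac3 was higher at both probes, by 1.55 ± 0.23 and 1.57 ± 0.24. St6galnac1, which makes the sialyl-Tn antigen, and St6galnac4 lay within 2-fold at 0.55 ± 0.20 and 0.34 ± 0.20. St6galnac2, which acts on core 1 O-glycans, was 2.48-fold lower (-1.31 ± 0.22) at the probe used, but at least 2.76-fold higher at another probe, so its direction is unsettled. With normexp background correction (offset 50) it was at -0.75. St6galnac5 was not measured.

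Of the ST8Sia enzymes, which join sialic acid to sialic acid, 3 of 7 names were measured. St8sia1, the GD3 synthase, was 2.75-fold higher, with signals of 198 on the positive and 112 on the negative array (1.46 ± 0.21). Its other probe gave 1.25 ± 0.27, while normexp gave 0.90, under 2-fold. St8sia4, a polysialic acid synthase, read 3715 on the positive and 4413 on the negative array at the probe used, a log2 difference of 0.39 ± 0.20. St8sia6 was at -0.79 ± 0.21. St8sia2, St8sia3 and St8sia5, genes known mainly from the nervous system, and the RNA gene St8sia3os were not well above background on either array.

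Of 4 measured fucosyltransferases 2 were higher and 1 lower by 2-fold or more. Fut4, an alpha-1,3-fucosyltransferase that makes the Lewis x antigen of myeloid cells, had a signal of 559 on the positive and 62.6 on the negative array and was 13.8-fold higher (3.79 ± 0.22). Fut7, the alpha-1,3-fucosyltransferase that completes sialyl Lewis x on selectin ligands, had a signal of 59.1 on the positive array and only 14.5 on the negative one, where it was not well above background, at least 5.68-fold higher. Fut4 and Fut7, which make the same linkage, were thus both higher.
Fut8, the only enzyme that adds core fucose to N-glycans, went the other way, with a signal of 147 on the positive and 827 on the negative array. It was 3.63-fold lower (-1.86 ± 0.21), and its other probe gave -1.61 ± 0.31. Fut11 was at -0.46 ± 0.26. Fut1 and Fut2, which make the H antigen and of which Fut2 is the enzyme of the gut epithelium, as well as Fut9, Fut10 and Fut4-ps1, were not well above background on either array. Of 7 mononuclear phagocyte markers, 6 were higher, the largest log2 difference being 7.13. Endothelial and M cell markers were higher in 3 of 4 cases each. A link of Fut4 or Fut7 with any of these cell types was not tested.

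The polypeptide GalNAc-transferases start mucin-type O-glycans by adding GalNAc to serine or threonine. Of 14 measured names 4 were higher and 4 lower by 2-fold or more. On the higher side Galnt18 had a signal of 70.1 on the positive array and only 4.19 on the negative one, where it was not well above background, at least 6.74-fold higher. Galnt3 read 60.0 on the positive and 20.9 on the negative array (4.46-fold, 2.16 ± 0.35) and Galnt5 read 105 and 50.4 (3.22-fold, 1.69 ± 0.23). These 3 genes have low signals, and the scanner error of Galnt3 is among the widest.
On the lower side Galnt6 had a signal of 770 on the positive and 4286 on the negative array, 3.59-fold lower (-1.84 ± 0.20), with -1.34 ± 0.33 at another probe. Galnt10 was 2.73-fold lower (-1.45 ± 0.20, and -1.10 ± 0.20 at another probe). Galnt9 and Galnt14, well above background on the negative array alone, were at least 2.69-fold and 2.12-fold lower. Under normexp background correction their bounds were -0.21 for Galnt9 and -0.12 for Galnt14, too small for a 2-fold call. Galnt6os, an RNA gene on the strand opposite to Galnt6, was the fourth name on the higher side: it read 34.8 on the positive array and only 7.22 on the negative one, where it was not well above background, at least 3.35-fold higher, while Galnt6 itself was lower. The remaining 6, Galnt1, Galnt2, Galnt4, Galnt7, Galnt11 and Galnt12, lay between -0.58 and 0.88. Under normexp the family held 1 higher and 2 lower members, Galnt3 at 0.88, Galnt5 at 0.95 and Galnt6os at a bound of 0.92 being under 2-fold. Galnt13, Galnt15 and Galnt16 were not measured.

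The GlcNAc-transferases of the Gcnt family add branches, and the 2 that were measured on both arrays moved in opposite directions. Gcnt2, which makes the I branches of poly-N-acetyllactosamine chains, had a signal of 1196 on the positive and 103 on the negative array. It was 17.9-fold higher (4.16 ± 0.21), the largest rise among the glycosyltransferases measured on both arrays and rank 271 from the highest of 12951 genes, and another probe gave 3.86 ± 0.23. Gcnt1, the enzyme that makes core 2 O-glycans in leukocytes, read 366 on the positive and 1272 on the negative array and was 2.24-fold lower (-1.16 ± 0.20), or -0.57 ± 0.26, under 2-fold, at another probe, and -0.99 under normexp. Gcnt3, the mucin-type core 2 enzyme of the gut epithelium, read 3.57 on the positive array, not well above background, and 34.2 on the negative array, at least 1.40-fold lower. All 4 goblet cell markers were lower, with log2 differences or bounds between -7.18 and -6.12. So were all 6 B cell, all 5 T cell and 5 of 6 enterocyte markers. The Gcnt3 bound is under 2-fold, and a link of Gcnt3 with any of these cell types was not tested. Gcnt4 and Gcnt7 were not measured.

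The Mgat enzymes start and branch N-glycans, and 1 of the 6 measured passed 2-fold. Mgat4a, which adds the branch that makes triantennary chains, read 5671 on the positive and 3432 on the negative array and was 2.56-fold higher (1.36 ± 0.20, and 2.08 ± 0.20 at another probe). Its relative Mgat4b was at 0.93 ± 0.21, just under 2-fold, and Mgat5, which adds the beta-1,6 branch, at 0.80 ± 0.21. Mgat2, which opens the path to complex chains, was at 0.57 ± 0.20. Mgat1, which acts before the others, read 5428 on the positive and 13849 on the negative array and was at -0.72 ± 0.20, and Mgat5b was at -0.05 ± 0.21. The branching enzymes, Mgat5b apart, were thus above 0 and the first enzyme below it. On the spike-in scale all 6 lie below 0, Mgat4a at -1.08. Mgat3, the bisecting enzyme, Mgat4c, Mgat4d and Mgat4e were not measured.

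Of 4 measured beta-1,3-galactosyltransferases and 6 measured beta-1,4-galactosyltransferases, 2 of each kind were higher by 2-fold or more, and 1 of the beta-1,4 kind was lower. B3galt5, which makes type 1 chains, had a signal of 426 on the positive and 124 on the negative array, 5.35-fold higher (2.42 ± 0.21). B3galt2 was at least 3.87-fold higher, with a signal of 40.3 on the positive array and only 4.29 on the negative one, where it was not well above background. Under normexp its bound was 0.96, under 2-fold. B4galt6, a lactosylceramide synthase, read 146 on the positive and 37.2 on the negative array (6.08-fold, 2.60 ± 0.26), whereas B4galt5, which makes the same lipid, was at 0.14 ± 0.20. B4galt4 was 5.45-fold higher, with signals of 296 on the positive and 84.1 on the negative array (2.45 ± 0.21). The main N-glycan enzyme B4galt1 was at -0.49 ± 0.20 and B4galt3 at -0.28 ± 0.20.
B4galt7 and B3galt6 build the linker of proteoglycans. B4galt7 was 2.12-fold lower (-1.08 ± 0.20, and -0.95 ± 0.23, under 2-fold, at another probe) and B3galt6 was at -0.16 ± 0.23. B3galt4, which makes ganglioside GM1, was at -0.81 ± 0.21. B3galt1 and B4galt2 were not measured.

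None of the 5 measured beta-1,3-GlcNAc-transferases was 2-fold higher and 3 were at least 2-fold lower. B3gnt5, which starts lacto-series glycolipids, had a signal of 323 on the positive and 1906 on the negative array, 3.80-fold lower (-1.93 ± 0.20), and its other probes gave -2.56 ± 0.21 and at least 2.99-fold lower. B3gnt2, the main enzyme of poly-N-acetyllactosamine chains, was 2.22-fold lower (-1.15 ± 0.20), with signals of 340 on the positive and 1172 on the negative array. B3gnt7 read 3.26, not well above background, on the positive and 51.6 on the negative array, at least 2.11-fold lower. Under normexp 1 of the 5, B3gnt5, stayed past 2-fold, with B3gnt2 at -0.86 and B3gnt7 at a bound of -0.11. B3gnt8 and B3gnt9 lay at -0.35 ± 0.21 and -0.29 ± 0.27. B3gnt3, B3gnt4 and B3gnt6 were not measured. B3gnt3 was not marked well above background, with a signal of 4.24 on the positive and 17.96 on the negative array at 1 probe. Gcnt3, given above, was so marked on the negative array, at 34.2. The lowest signal so marked on the negative array was 16.1, so the mark is no fixed signal cut-off.

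Probes of 1 gene did not always give 1 value. Of 22 glycosyltransferase genes with more than 1 measured probe, 13 had probes of one sign within 1 of each other on the log2 scale, while 6 had probes more than 1 apart and 6 had probes of opposite sign, 9 genes in all. The widest differences were those of St6galnac2, St3gal1 and St8sia4. For St3gal1, 2 probes of the RefSeq transcript NM_009177 gave 0.11 ± 0.20 and 0.19 ± 0.20, and a probe named for the cDNA AK169958, at -71.9 kb from the probe used (negative distances lie upstream), read 1429 on the positive and 387 on the negative array, a log2 difference of 2.52 ± 0.20. For St8sia4, the probe of transcript NM_009183 gave 0.39 ± 0.20 and that of NM_001159745, at -39.9 kb, read 1862 on the positive and 461 on the negative array, 2.65 ± 0.20. The upstream probe was thus the higher one in both genes, by more than the scanner error.
In St3gal6 the most upstream of 4 probes alone was above 0, at 0.45 ± 0.21, and the others, in the direction of transcription, gave -1.07 ± 0.21, -0.37 ± 0.21 and -1.18 ± 0.21. In St6galnac2, 2 probes of the same transcript, NM_009180, disagreed, the upstream one being higher by at least 1.46 and the downstream one at -1.31 ± 0.22. In Mgat5 the order was the other: the most upstream of 3 probes gave the lowest value, 0.80 ± 0.21, and the others were 1.20 ± 0.21 and at least 2.29.
The first 30 bases of the contrasting probes are given because they show which stretch of each gene was read.
St3gal1 upstream, chr15:67006418-67006477, minus strand: tactaaattaaaattcatccagtgacttcc
St3gal1 used, chr15:66934515-66934574, minus strand: atcctcctgattggtctgaatgcatttcca
St8sia4 upstream, chr1:97524211-97524270, minus strand: atgagagtgacagagaaaaatttgtgcata
St8sia4 used, chr1:97484331-97484390, minus strand: aaggaaggatgaagcttactctgtaggttc
St6galnac2 upstream, chr11:116545686-116545745, minus strand: ccttctacggtttcaccgtgaacaccatga
St6galnac2 used, chr11:116538040-116538094, minus strand: acattagtccttgtcaccaacaggaaactg

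**Figure D3:**
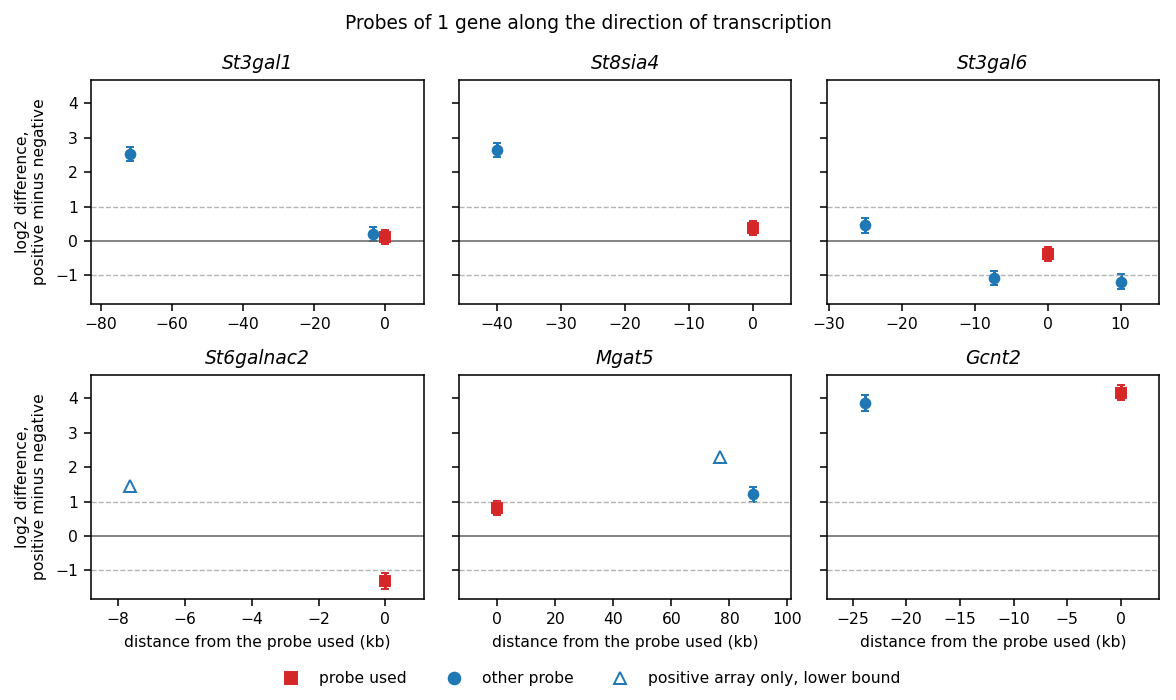
Log2 difference (S100A4-positive minus S100A4-negative) of each measured probe of 6 genes against its distance in kb from the probe used, counted along the direction of transcription, so that negative distances lie upstream; bars are the scanner error, the open triangle is a lower bound and dashed lines mark 2-fold. The most upstream measured probes of St3gal1, St8sia4, St3gal6 and St6galnac2 lie above the probes used, and the 2 probes of Gcnt2 give 3.86 and 4.16.

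Gcnt2 and St6gal1, the genes with the largest difference each way, are each transcribed from several starts. Gcnt2 is known for alternative first exons. Its 2 measured probes carry the accession NM_133219, and a probe of NM_008105, at -71.7 kb from the probe used, was not well above background on either array. RefSeq lists 3 starts for each of these genes on the GRCm38.p6 build, and the 250 bases before each start are printed 5′ to 3′ on the strand of the gene. Capitals mark letters of 5 motifs searched on both strands, which were TATAAA, known as the TATA box, CCAAT, known as the CCAAT box, GGGCGG, known as the GC box, ATGCAAAT, the octamer of Oct factors, and GAGGAA, bound by PU.1 and other ETS factors.
St6gal1 start 1, chr16:23224490-23224739, plus strand: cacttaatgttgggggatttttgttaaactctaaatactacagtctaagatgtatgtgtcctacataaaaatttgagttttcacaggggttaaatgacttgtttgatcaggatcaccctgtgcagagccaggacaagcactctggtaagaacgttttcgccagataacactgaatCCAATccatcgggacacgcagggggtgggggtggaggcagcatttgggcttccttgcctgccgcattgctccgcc
St6gal1 start 2, chr16:23225771-23226020, plus strand: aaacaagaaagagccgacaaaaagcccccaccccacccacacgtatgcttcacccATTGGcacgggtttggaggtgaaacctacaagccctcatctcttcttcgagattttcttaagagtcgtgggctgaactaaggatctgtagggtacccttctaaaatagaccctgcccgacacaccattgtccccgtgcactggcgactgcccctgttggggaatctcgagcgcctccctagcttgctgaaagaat
St6gal1 start 3, chr16:23290220-23290469, plus strand: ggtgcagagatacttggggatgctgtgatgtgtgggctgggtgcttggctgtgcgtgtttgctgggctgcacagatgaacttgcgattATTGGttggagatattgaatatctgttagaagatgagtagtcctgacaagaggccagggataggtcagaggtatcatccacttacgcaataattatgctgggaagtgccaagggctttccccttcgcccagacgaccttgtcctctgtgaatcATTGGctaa
Gcnt2 start 1, chr13:40859518-40859767, plus strand: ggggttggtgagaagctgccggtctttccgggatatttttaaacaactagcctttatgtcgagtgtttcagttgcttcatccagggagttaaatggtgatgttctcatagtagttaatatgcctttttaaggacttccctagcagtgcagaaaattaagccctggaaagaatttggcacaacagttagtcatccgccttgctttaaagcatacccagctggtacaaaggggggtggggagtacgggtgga
Gcnt2 start 2, chr13:40886508-40886757, plus strand: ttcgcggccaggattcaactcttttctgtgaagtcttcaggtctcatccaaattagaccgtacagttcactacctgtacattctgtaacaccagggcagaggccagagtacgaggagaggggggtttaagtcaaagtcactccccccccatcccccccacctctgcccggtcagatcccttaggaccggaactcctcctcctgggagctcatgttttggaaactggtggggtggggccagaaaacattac
Gcnt2 start 3, chr13:40917384-40917633, plus strand: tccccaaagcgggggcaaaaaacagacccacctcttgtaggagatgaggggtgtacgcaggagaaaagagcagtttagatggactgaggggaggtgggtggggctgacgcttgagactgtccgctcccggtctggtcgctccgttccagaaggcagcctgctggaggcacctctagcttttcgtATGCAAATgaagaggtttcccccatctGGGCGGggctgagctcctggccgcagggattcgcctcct
CCAAT or its complement stood before all 3 St6gal1 starts and before 33.8% of all 32851 starts in the table. The third Gcnt2 start had an octamer and a GC box, which 1.6% and 32.7% of all starts hold, and the other Gcnt2 starts held none of the 5 motifs. No window of either gene held TATAAA or GAGGAA, which 12.4% and 23.3% of all starts hold. Of the 57 measured names 44 had a start in the table, 63 starts in all, and GGGCGG was in 31 of these (49.2%), and in 8 of the 20 starts of genes higher by 2-fold or more and 7 of the 20 of genes lower by that size. A match is a description of the letters, and which start these cells used was not measured.

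Few genes that supply the sugars passed 2-fold, which 17.7% of all genes measured on both arrays did upwards and 16.4% downwards. All 17 genes of sugar nucleotide supply were measured on both arrays, and at the probe used none was 2-fold higher and 2 were lower, both enzymes of the GDP-fucose routes: Gmds, which acts first in the route from mannose, at -1.20 ± 0.20 (-0.92, under 2-fold, at another probe), and Fcsk, the fucose kinase of the salvage route, at -1.10 ± 0.20. The listed enzymes that follow them in these routes lay above 0, Gfus after Gmds at 0.23 ± 0.20 and Fpgt after Fcsk at 0.79 ± 0.23. Slc35c1, the GDP-fucose transporter of the Golgi, was the 1 of 6 nucleotide sugar transporters past 2-fold at the probe used, at -1.18 ± 0.20, with signals of 1327 on the positive and 4650 on the negative array. Cmas, which makes CMP-sialic acid, was at 0.66 ± 0.20 at the probe used and at 1.42 ± 0.20, past 2-fold, at another, and its transporter Slc35a1 was at 0.12 ± 0.20. Cmah, which hydroxylates CMP-sialic acid, was at 0.37 ± 0.20 at the probe used, but at -1.45 ± 0.21 and -2.11 ± 0.21 at 2 other probes, so its direction is unsettled. The transporter gene Slc35a3 was at 0.51 ± 0.21 and 0.41 ± 0.21 at 2 probes and past 2-fold, at 1.04 ± 0.21 and 1.23 ± 0.21, at 2 others. The median over the supply genes was 0.08 and over the transporters -0.12. The lower genes made up 11.8% of the supply genes and 16.7% of the transporters, near the share of all genes. Under normexp no transporter gene was 2-fold lower.

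Genes that trim, remove or modify glycans held a few large differences. Of 8 N-glycan trimming genes 1 was higher and 1 lower at the probe used, and quantile normalization gave 1 higher and 2 lower. The Golgi mannosidase gene Man1c1 was 12.4-fold higher, with signals of 524 on the positive and 65.4 on the negative array (3.64 ± 0.22). Man1a2 was 2.22-fold lower. Man1a was at -0.96 ± 0.20 at the probe used, and its other probes ran from -1.52 to 0.29. Man2a2 was at 0.22 ± 0.20 at the probe used and at 1.32 ± 0.26 at a dimmer one. Of 5 measured genes for sialidases and sialic acid handling, Npl, which breaks down free sialic acid, was at least 25.5-fold higher, with a signal of 265 on the positive array and only 3.52 on the negative one, where it was not well above background. Casd1, which O-acetylates sialic acid, was 2.34-fold lower (-1.23 ± 0.21), and the sialidase gene Neu3 at least 3.91-fold lower. Neu1, the lysosomal sialidase gene, was at -0.76 ± 0.20. The trimming list held 12.5% higher and 12.5% lower, and the sialic acid list 20.0% higher and 40.0% lower. Under normexp no gene of the sialic acid list was 2-fold lower. Of all named genes 21.4% were higher and 17.0% lower by that size.

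Of 17 measured genes in a list of other glycosyltransferases and a chaperone, not all of the Golgi, 3 were higher and 4 lower. These were 17.6% and 23.5% of the list, near the 21.4% and 17.0% of all named genes. Quantile normalization gave 3 higher and 6 lower, and normexp 3 higher and 3 lower. B3galnt1, which makes globoside, was at least 14.6-fold higher, and C1galt1c1, the chaperone of the core 1 enzyme, was at 1.25 ± 0.20, whereas C1galt1 itself was at -0.56 ± 0.21. Pofut2, a protein O-fucosyltransferase, was 7.29-fold higher (2.87 ± 0.20), but 0.73, under 2-fold, at another probe. B4galnt2, which makes the Sd(a) antigen of the gut, read 28.0 on the positive and 808 on the negative array, 18.6-fold lower (-4.22 ± 0.27). B4galnt4 was at least 5.59-fold lower, B3gntl1 2.34-fold and B3galnt2 2.21-fold lower.
The glycan sulfotransferases differed widely among themselves. Chst1, a keratan sulfate and selectin ligand sulfotransferase, was 8.76-fold higher (3.13 ± 0.21), and Chst2, an enzyme of 6-sulfo sialyl Lewis x synthesis, 5.80-fold higher (2.54 ± 0.24). Chst7 and Gal3st1 were 3.17-fold and 2.38-fold higher. Chst3, a chondroitin sulfotransferase gene, read 151 on the positive and 12960 on the negative array, 55.3-fold lower (-5.79 ± 0.21). A dimmer Chst3 probe read 3.94 on the positive and 22.9 on the negative array and set no bound on the difference. Of the 7 measured, 4 were thus higher (57.1%) and 1 lower (14.3%), against 21.4% and 17.0% of all named genes. Quantile normalization and normexp each left 3 of them higher and 1 lower. Chst4, the sulfotransferase of high endothelial venules, was not measured.

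**Figure D4:**
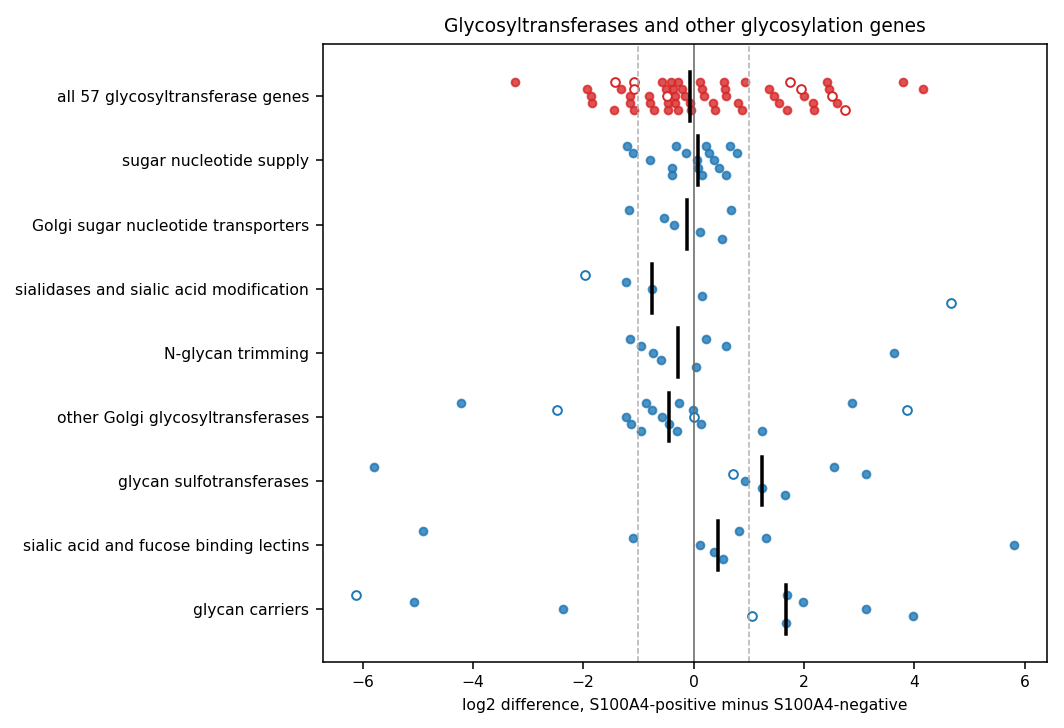
Log2 difference (S100A4-positive minus S100A4-negative, horizontal axis) of each measured gene, for the glycosyltransferases in red and 8 lists of other glycosylation genes in blue; open points are bounds for genes well above background on 1 array, black bars are medians and dashed lines mark 2-fold. The sugar nucleotide supply genes lie between -1.20 and 0.79, while the sulfotransferases reach from -5.79 to 3.13.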

How the data were processed

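RNA of each fraction was labelled with Cy3 through a low-input protocol, per the labels' protocols, and read on Agilent design 74809. Feature Extraction 10.7.1.1 made the spot intensities, per the file headers of the authors' scanner tables, but the version given by the submitters' processing notes is 9.5.1.1. The software had background-subtracted and detrended the deposited intensity values, with no normalization between arrays. Flags for spots well above background, another deposited kind of value, were taken as given. The deposited value table (56605 probes, both medians 19.6) served as an alternative, and its scale is linear, with steps unstated; its log2 values correlated with those of the scanner tables across probes at 0.9998 and 0.9999 on the positive and negative array.

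Control and outlier spots (80 on the positive and 138 on the negative array) were left out. Signals were taken to log2, the 75th percentile of its array was subtracted (287 on the positive and 446 on the negative array), and spots of a probe were averaged. Of the probes, 32993 were named through RefSeq accessions of a GRCm38 table, 10224 by symbol and 520 by synonym, and 12865 were left unnamed. Where several probes of a gene were measured, the one of highest mean log2 signal stands for it. A gene well above background on 1 array was set against whichever was higher, its own signal on the dim array or the lowest signal well above background on the dim array (15.7 on the positive and 16.1 on the negative array), and is given as "at least". The median ratio of raw signal to local background over such spots was 5.35 on the positive and 6.80 on the negative array, and the number of arrays limits the precision.

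The rule for named genes takes every glycosyltransferase gene and no more than 4 higher and 4 lower members of each other list. The members and lists were chosen with earlier results of these data known. Alternatives were normexp (offset 50), quantile and cyclic loess normalization (limma 3.58.1, R 4.3.3), other scalings, other filters, the median over probes, the deposited table and a 4-fold size. Other steps used pandas 2.3.3 and numpy 2.4.6 under Python 3.11.15 and were tested on simulated data. Promoter sequences are from RefSeq (GRCm38.p6).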

Additional observations from a re-analysis of the deposited data

How the results depend on the processing

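The counts of 16 higher and 12 lower glycosyltransferase genes depended on the scale between arrays. On the E1A spike-in scale 2 were higher and 42 lower (median -2.50), and with no scaling 13 were higher and 22 lower (median -0.70), so that higher genes made up 4.55% and 37.1% of those past 2-fold, against 57.1% as reported. The E1A signal itself was 3.50-fold higher on the positive array, and no source used here gives how much RNA was labelled. On the spike-in scale St3gal3 was at -0.25, St6galnac6 at -0.45, St6galnac3 at -0.89, St8sia1 at -0.98, Galnt3 at -0.28, Galnt5 at -0.75, Mgat4a at -1.08 and B3galt5 at -0.022. Normexp with an offset of 50, which compresses dim probes, left 11 higher and 6 lower, and Galnt9, Galnt14, B3gnt7, B3gnt2, Gcnt1 and St6galnac2 were no longer 2-fold lower, nor Galnt3, Galnt5, Galnt6os, St8sia1 and B3galt2 2-fold higher. For Galnt9, Galnt14, B3gnt7, Galnt6os and B3galt2 it was the bound that fell under 2-fold. With no filter on dim probes the median was 0.40 over all 82 names, and also over all named genes, with 24 higher and 14 lower. At 4-fold in place of 2-fold, 9 were higher and 1 was lower. With the median over probes St6galnac2 was at 0.077 in place of -1.31, since its probes disagree. Quantile and cyclic loess normalization, the percentile over probes detected on both arrays and the deposited table kept 27 or 28 of the 28 genes past 2-fold in their direction. Not all of these are separate checks. That percentile moved all genes by only 0.01, and the median over all genes was -0.09 both in the deposited table and under quantile normalization. Under all 10 settings other than the 4-fold size, 7 genes stayed past 2-fold in their direction, which were Gcnt2 and Fut4 (higher) and St6gal1, B3gnt5, Fut8, Galnt6 and Galnt10 (lower). The spike-in scale and no scaling move every gene downwards, by -2.44 and -0.63, so neither could remove a lower gene. Without the spike-in scale 14 genes stayed in every setting that held them, the added ones being B3galt5, B4galt4, B4galt6, Fut7, Galnt18, St3gal3 and St6galnac6, all higher. No paired analysis was possible because each group is 1 sample.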

Other observations

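Of 8 measured genes for lectins that bind sialic acid or fucose, 2 were higher and 2 lower by 2-fold or more at the probe used. Siglech, a lectin gene of plasmacytoid dendritic cells, was within 2-fold only at that probe, at 0.37 ± 0.20, and was higher by at least 4.37 and 7.27 on the log2 scale at 2 other probes, well above background on the positive array alone. Cd33, a myeloid sialic acid-binding receptor gene, read 592 on the positive and 16.4 on the negative array and was 56.2-fold higher (log2 difference 5.81 ± 0.35). Selp, which encodes P-selectin, was 2.47-fold higher, at low signals of 31.2 on the positive and 19.6 on the negative array. Cd22 read 87.7 on the positive and 4069 on the negative array and was 29.9-fold lower (-4.90 ± 0.21, and -3.49 at another probe), and Siglecg, another B cell member of the family, was 2.15-fold lower. Siglec1 and Sele were not measured. Quantile normalization and normexp each left 1 of the 8 lectin genes higher and 2 lower.

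All 9 measured genes for carriers of such glycans passed 2-fold, 6 of them higher and 3 lower. Quantile normalization gave 5 higher and normexp 4, each with 3 lower. Selplg, which encodes the selectin ligand PSGL-1, had a signal of 10904 on the positive and 4298 on the negative array, 3.94-fold higher (1.98 ± 0.20), and Cd34 and Glycam1, sialomucin genes of vessels, were 15.7-fold and 8.68-fold higher. Muc1 was 3.24-fold higher. The gut mucin genes went down, Muc13 33.5-fold (-5.07 ± 0.24) and Muc2 at least 69.8-fold, as did Cd24a, 5.15-fold (-2.36 ± 0.20). A dimmer Muc2 probe read 3.34 on the positive and 20.3 on the negative array and set no bound on the difference. These lists held 25.0% higher and 25.0% lower for the lectins and 66.7% higher and 33.3% lower for the carriers, where 21.4% and 17.0% of all named genes passed.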
